A study of Mus musculus with 12 samples.

Results

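The mitochondrial respiratory chain moves electrons from NADH and succinate to oxygen through 4 complexes, and nearly all of its subunits are made from nuclear genes. The mouse retina was examined here for 64 of these nuclear genes, of 36131 genes in the table of counts. They were all genes whose symbol begins with Ndufa, Ndufb, Ndufc, Ndufs or Ndufv followed by a digit, the 4 Sdh genes, those beginning with Uqcr and those beginning with Cox followed by 4 to 8, other than Ndufa4l2 and pseudogenes, provided that each had 10 or more counts in every retina except that of animal 10. Names and measured counts are all that this rule uses, but the rule was set with earlier results of these data known. By complex, 37 are called subunits of complex I, 4 of complex II, 8 of complex III and 15 of complex IV.

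RNA-seq was performed on poly(A)-selected RNA of whole retinas from 12 wildtype C57BL/6J mice at P18, 1 library per animal. RA-PBS animals 1 to 4 were kept in room air and received placebo, O2-PBS animals 5 to 8 entered 75% O2 at P7, returned to room air at P12 and received placebo, and O2-IC100 animals 9 to 12 had the same exposure and received IC100. This exposure is the oxygen-induced retinopathy (OIR) model, in which high oxygen stops vessel growth and the avascular retina becomes hypoxic once the pups breathe room air. IC100 is a humanized monoclonal antibody against ASC, the adaptor protein of inflammasomes, and was given 3 times by the intraperitoneal route (10 μg/g, days P12, P14 and P16). The placebo was PBS in both control groups, with the same 3 injection days, and not a control antibody, so the antibody as such and its target cannot be told apart. The paper describes its PBS placebo as an intravitreal injection, so the route may have differed between placebo and IC100. An effect of the route was not tested.

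Complex I takes electrons from NADH, complex II from succinate, complex III passes them from ubiquinol to cytochrome c and complex IV passes them to oxygen. Rod photoreceptors, which fill most of the mouse retina, are among the cells with the highest energy use of the body and keep dense mitochondria in their inner segments. Cells in hypoxia are known to exchange some subunits, such as COX4 isoform 1 for isoform 2, and to make NDUFA4L2, a paralog of NDUFA4 that is induced under low oxygen.

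Total counts per retina were 14907143 to 24438082. Lens tissue, seen by its crystallin transcripts, supplied 59.0% of all counts in O2-IC100 animal 10, 1.26% to 4.51% in RA-PBS animals 2, 3 and 4, and at most 0.0204% in the other 8 retinas. Rod genes took 0.356% of the counts of animal 10 and 4.18% to 5.20% in the other 11. The results below are therefore from a fit of 11 animals, and the calls of a fit of all 12 are given where they differ. Y-linked genes summed to 6.25 to 10.9 CPM in animals 4, 5, 6 and 7 and to 4.47 CPM in animal 10, against 246 to 362 CPM in the other 7, so that 3 of 4 O2-PBS retinas but 0 of the 3 O2-IC100 retinas of the fit had low Y-linked levels. Levels are given as CPM, counts scaled to a common library total after TMM normalization. The sex of the animals is not given in the labels used here.

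No member passed the test in any of the 3 comparisons of the 11 retinas at a Benjamini-Hochberg adjusted p under 0.1 over all 16688 genes tested (edgeR quasi-likelihood F test, two-sided). The members nevertheless lay on 1 side in each step. In O2-PBS retinas 61 of 64 were lower than in RA-PBS, by a median of -0.22 on the log2 scale, and in O2-IC100 retinas 62 of 64 were higher than in O2-PBS, with a median of 0.31. The median over all tested genes was -0.01 and 0.00 in these comparisons. As members of one pathway in the same 11 libraries, the genes are not independent of each other.

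Summed over the 64 members, the RA-PBS retinas had 5334, 3511, 3865 and 5469.8 CPM, the O2-PBS retinas 3431, 3961, 4215 and 4219 CPM, and O2-IC100 animals 9, 11 and 12 had 4835, 4914 and 4708 CPM. RA-PBS animals 1 and 4 had the highest sums of the 11 and animals 2 and 3 lay within the range of O2-PBS, whereas each of the 3 O2-IC100 retinas was above each of the 4 O2-PBS retinas. The coefficient of variation was 22.0% in RA-PBS (n = 4), 9.37% in O2-PBS (n = 4) and 2.16% in O2-IC100 (n = 3). Animal 10 had 10403 CPM, although members made only 0.304% of its counts against 0.346% to 0.527% in the other 11. In bulk RNA, fewer cells of a type and less RNA per cell cannot be told apart.

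**Figure D1:**
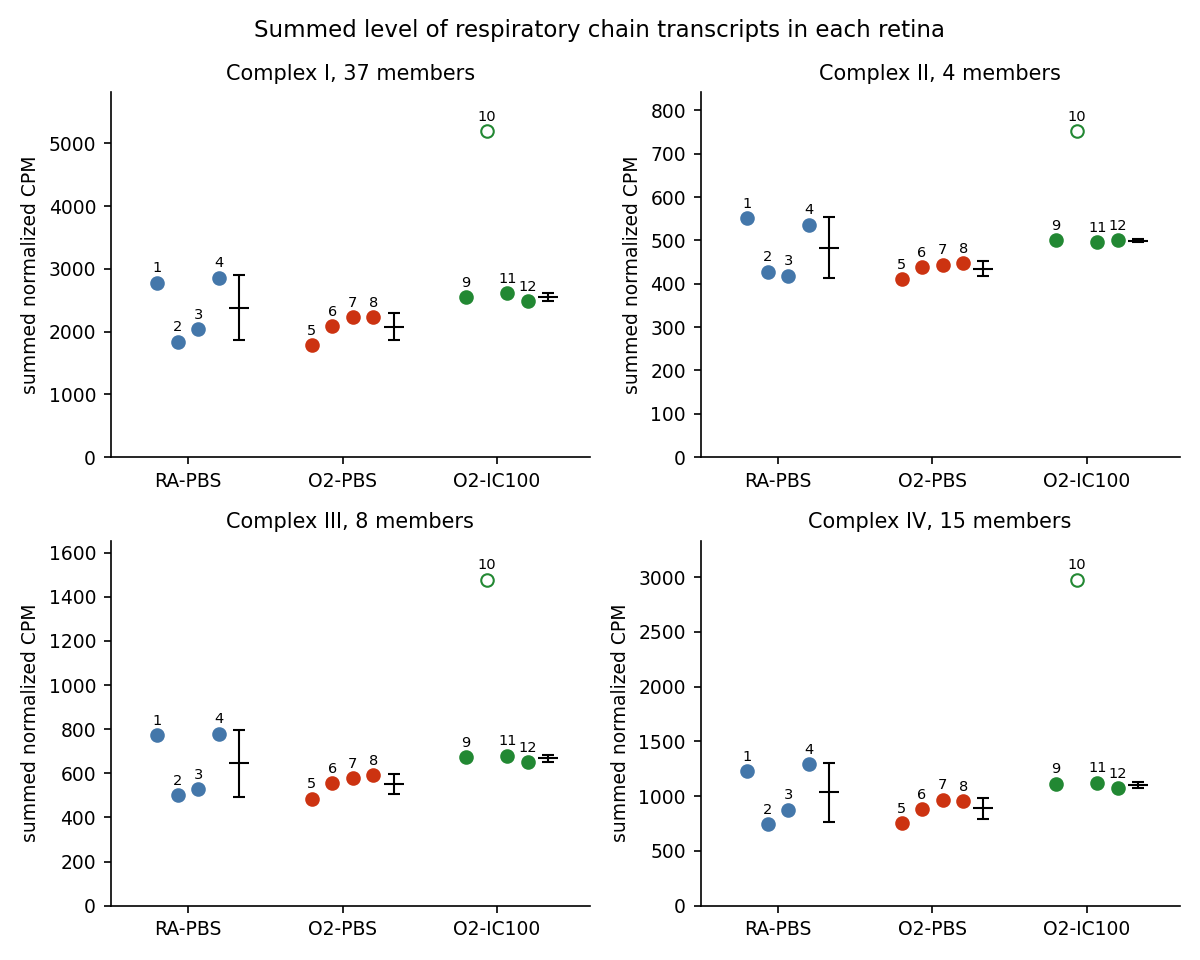
Summed normalized CPM of the members of each complex (y axis) in the 3 groups (x axis), with a point per retina and its animal number. Bars are mean and SD without O2-IC100 animal 10, drawn as an open circle; the other 3 O2-IC100 retinas lie above all 4 O2-PBS retinas in every complex, and RA-PBS retinas 1 and 4 lie apart from 2 and 3.

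All 4 complexes had the same order of group means. Complex I summed to 2379 ± 516 CPM (SD, n = 4) in RA-PBS, 2080.3 ± 209.6 CPM (SD, n = 4) in O2-PBS and 2549 ± 66.6 CPM (SD, n = 3) in O2-IC100. For complex II these values were 483 ± 69.5, 435 ± 17.0 and 499 ± 2.80 CPM. Complex III had 646 ± 152, 552 ± 46.9 and 668 ± 14.9 CPM, and complex IV had 1036 ± 268, 889 ± 98.1 and 1103 ± 26.6 CPM. The O2-PBS mean was 0.854 to 0.900 times that of RA-PBS, and the O2-IC100 mean was 1.15 to 1.24 times that of O2-PBS. The first difference was smaller than the SD of RA-PBS in every complex, and complex II had the ratios nearest to 1 in both steps. No test was made on these sums.

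**Figure D2:**
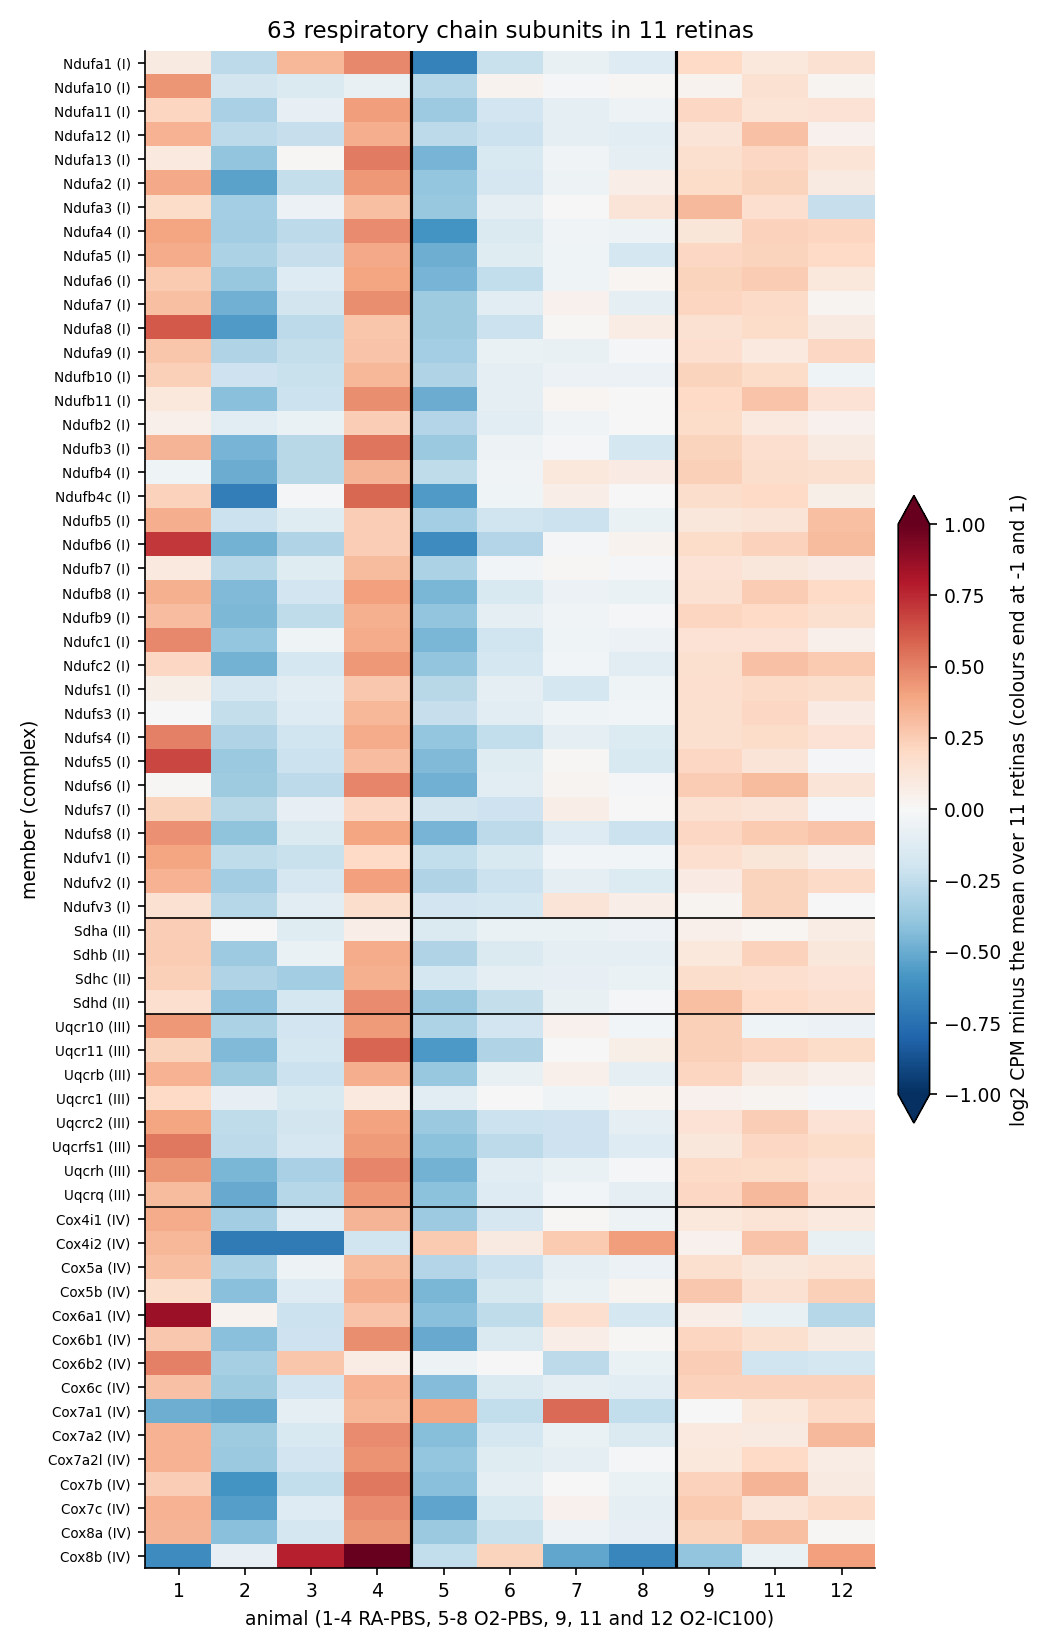
Log2 CPM of 63 members (rows, by complex) minus its mean over the 11 retinas (columns, by animal), red for higher and blue for lower. Most rows are red in animals 1, 4, 9, 11 and 12 and blue in animals 2, 3, 5 and 6, and Cox4i2, Cox7a1 and Cox8b depart from this.

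Members varied together from retina to retina, also within a group. Relative to each gene's mean over 11 retinas, the median member stood at 0.30, -0.35, -0.18 and 0.37 log2 units in RA-PBS animals 1 to 4. In O2-PBS animals 5 to 8 it stood at -0.38, -0.14, -0.04 and -0.05, and in O2-IC100 animals 9, 11 and 12 at 0.17, 0.18 and 0.13. Short transcripts as a class moved in the same sense. The shortest 20% of all tested genes, up to 1645 bases long, had medians of 0.07, -0.21, -0.10 and 0.20 in RA-PBS, -0.12 to 0.02 in O2-PBS and 0.08 to 0.11 in O2-IC100. The longest 20% moved the other way in animals 1 to 6 and in O2-IC100. Of the 64 members, 54 belong to the shortest 20%, with a median transcript length of 764 bases. When length and GC content were corrected in each library by splines, the fit had 61 of 64 members lower in O2-PBS than in RA-PBS. In O2-IC100 it had 63 higher than in O2-PBS, and 40 higher and 24 lower than in RA-PBS. The median over all tested genes was then -0.07, 0.05 and -0.02. Corrected medians of the members per retina were not obtained, so the part of transcript length in their shared variation was not tested. Crystallin shares of the RA-PBS animals were 0.00691%, 1.26%, 4.51% and 1.45%, and did not follow the members in animal 4.

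**Figure D3:**
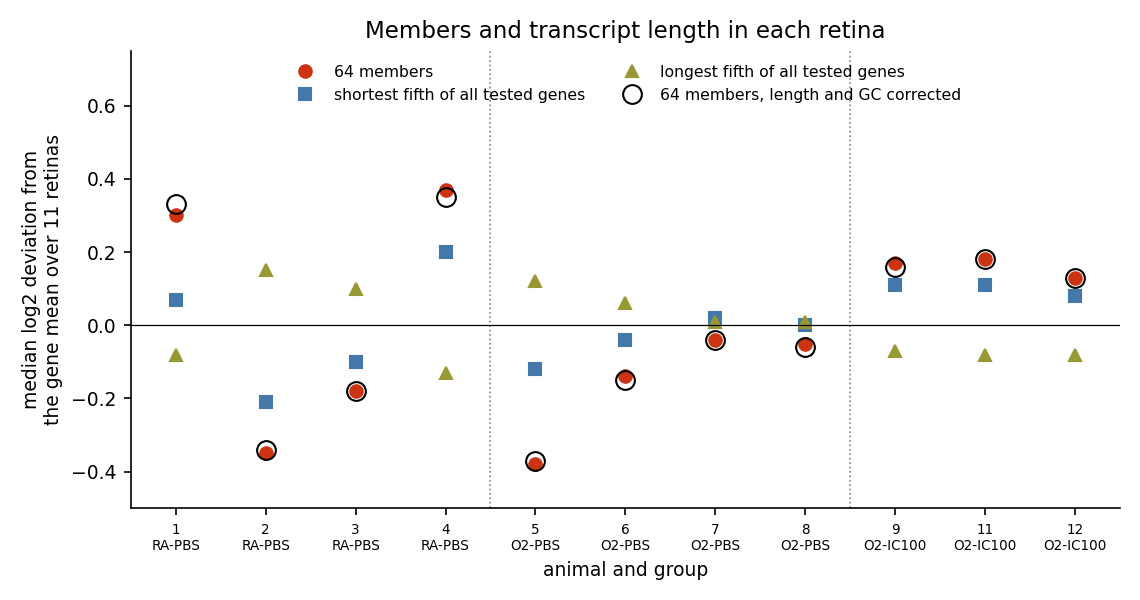
Median log2 deviation from the gene mean (y axis) in each of 11 retinas (x axis). Points are the 64 members and the shortest and longest 20% of all tested genes by transcript length. The members lie farther from 0 than the shortest genes in all 11 retinas, on the same side in 9. Open circles, labelled as corrected, hold almost none of the length and GC correction and are not used.

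Promoters of members were read because the genes varied together. RefSeq (GRCm38.p6) gives 300 bases around the start of transcription for 52 of the 64 members, in 54 promoters. Letters of 3 factors known to act on nuclear genes of respiration were searched on both strands: the core GCGCNTGCG of NRF1, CCGGAAG of the ETS factor GABP, and AAGATGGC of YY1. The NRF1 letters were in 16 of the 54 promoters (29.6%) against 6.31% of all 32851 promoters, the GABP letters in 11 (20.4%) against 8.86%, and the YY1 letters in 7 (13%) against 2.75%. At least one of the 3 was in 30 member promoters, and NRF1 and GABP matches overlapped in 0 of them. ACGTG, the core of the hypoxia response element, was in 12 (22.2%), against 19.6% of all promoters. These are matches of letters and were not tested as binding sites. The promoters they are set against were not matched for base composition. A link of the letters to the variation between retinas was not tested. Members without an entry include Cox4i1, Cox4i2, Cox6c, Ndufa2, Ndufb4c, Ndufb9, Ndufs1, Sdhc, Uqcrb, Uqcrc2 and Uqcrq.

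The 3 promoters with the most of these matches within the 120 bases before the start are shown to let the arrangement be seen, 5′ to 3′ on the strand of the gene, with the matches in capitals. In Sdha, at chr13:74350241-74350360 on the minus strand, all 3 matches are NRF1 letters. In Cox6a1, at chr5:115348959-115349078 on the minus strand, 1 NRF1 match is followed by 1 GABP match, both read on the other strand. In Ndufa8, at chr2:36049339-36049458 on the minus strand, both matches are NRF1 letters.
Sdha: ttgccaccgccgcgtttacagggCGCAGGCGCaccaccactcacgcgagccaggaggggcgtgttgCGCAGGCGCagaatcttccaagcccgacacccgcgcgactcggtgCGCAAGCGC
Cox6a1: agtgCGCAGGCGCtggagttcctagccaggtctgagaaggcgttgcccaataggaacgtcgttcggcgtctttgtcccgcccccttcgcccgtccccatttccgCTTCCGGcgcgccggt
Ndufa8: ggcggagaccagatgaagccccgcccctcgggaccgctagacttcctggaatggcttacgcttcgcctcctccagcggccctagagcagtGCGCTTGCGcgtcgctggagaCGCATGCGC
Per kilobase of transcript, the levels of these members were 101 CPM for Sdha, 54.4 CPM for Ndufa8 and 4.39 CPM for Cox6a1.

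The first comparison, O2-PBS against RA-PBS, asks what remains of the exposure 6 days after the return to room air. Over all genes 1002 (6.00%) were called higher and 1072 (6.42%) lower, and 0 of the 64 members were called in either direction. At an unadjusted p under 0.05, 6 members were lower (all genes, 11.6%) and 1 was higher (all genes, 10.2%), and 0 members had O2-PBS retinas all below or all above the RA-PBS retinas (all genes, 6.48% below and 7.86% above). These shares are at or under those of all genes. DESeq2 called 1 member higher (Cox4i2; all genes, 6.74%) and 2 lower (Ndufa1 and Uqcrfs1; all genes, 7.35%), and limma voom 1 higher (all genes, 6.36%) and 0 lower (all genes, 5.37%). In the edgeR fit of all 12 animals 134 genes (0.813%) and 0 members were called, and 0 members had an unadjusted p under 0.05 (all genes, 4.62% higher and 2.50% lower).

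**Figure D4:**
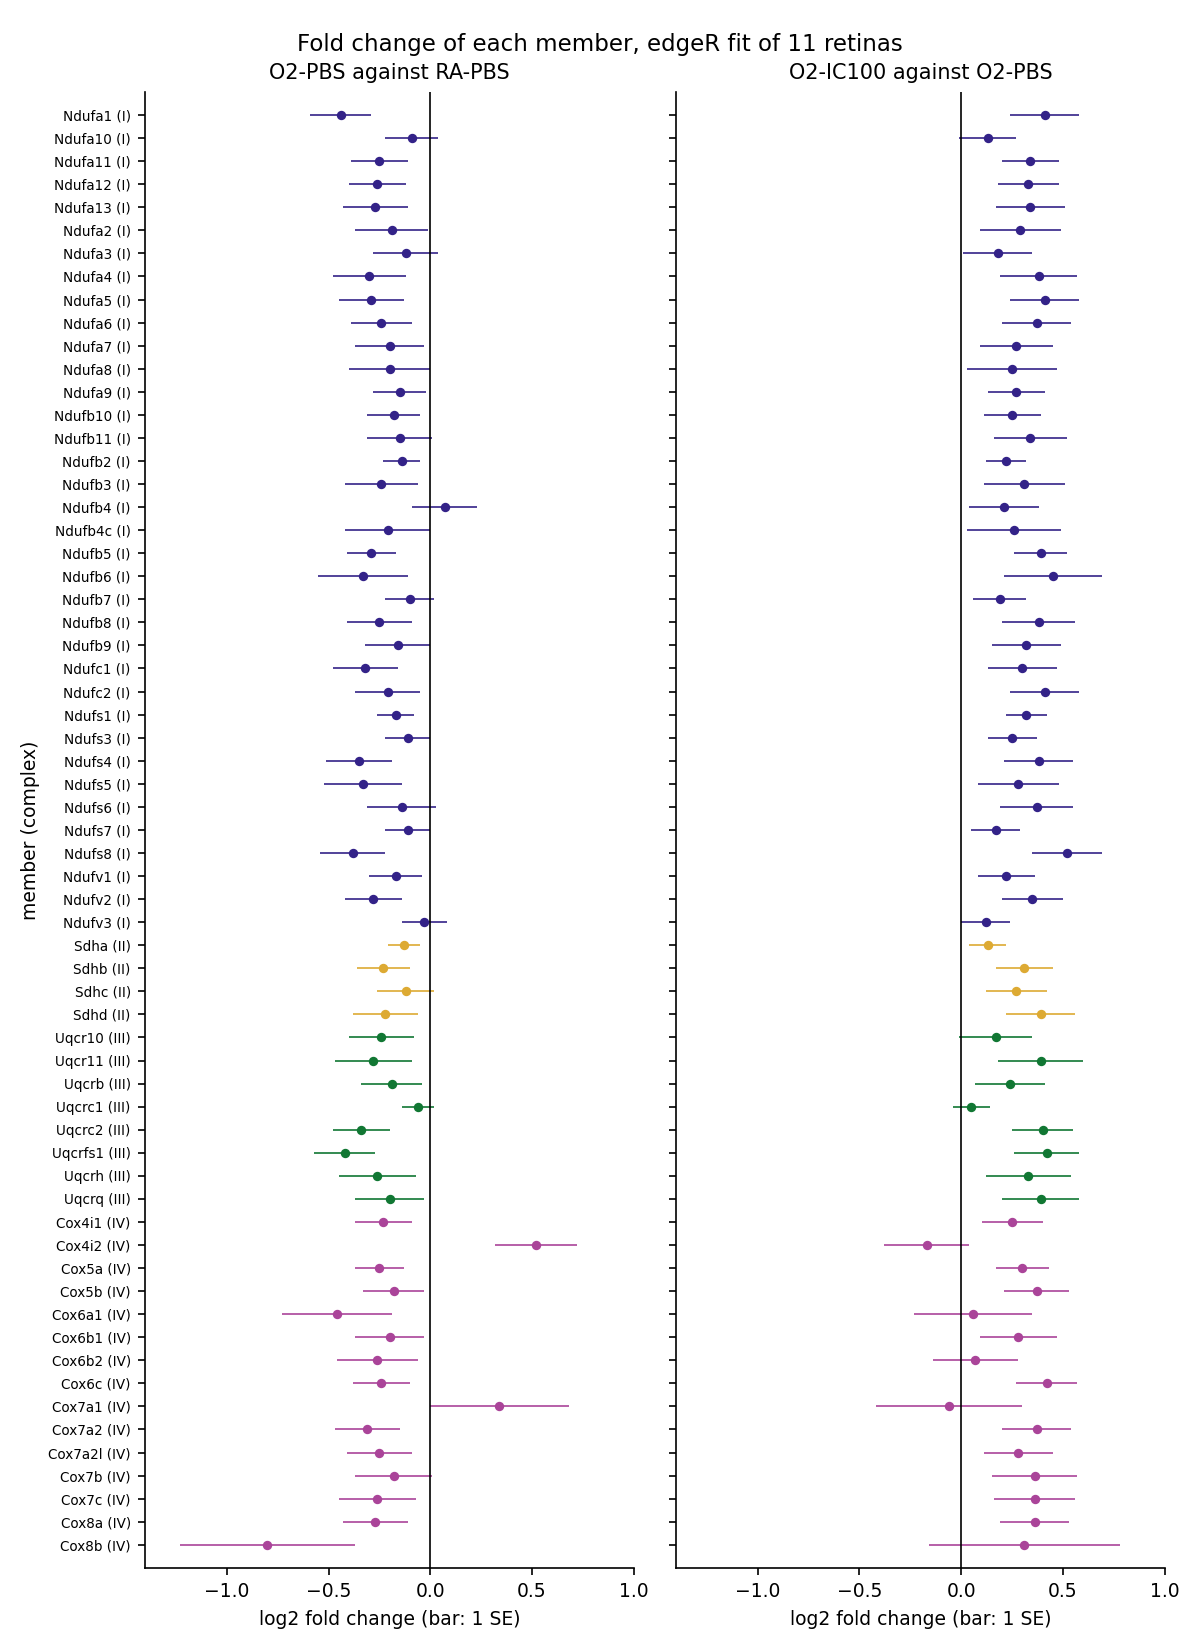
Log2 fold change (x axis) of 63 members (y axis, by complex) in the edgeR fit of 11 retinas, O2-PBS against RA-PBS on the left and O2-IC100 against O2-PBS on the right, with bars of 1 SE. Points lie mostly left of 0 in the first panel and right of it in the second, and Cox4i2 and Cox7a1 are on the opposite side in both.

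The member nearest to a call was Ndufa1 (ENSMUSG00000016427), an X-linked accessory subunit of the membrane arm of complex I. It had 38.8, 30.2, 45.9 and 50.7 CPM in RA-PBS, 22.7, 31.2, 34.6 and 33.2 CPM in O2-PBS and 41.8, 39.1 and 40.4 CPM in O2-IC100 animals 9, 11 and 12. The O2-PBS and RA-PBS values overlapped through animal 2, and the log2 difference was -0.44 ± 0.15 (SE, adjusted p = 0.102). Animal 10 had 498 CPM.

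Uqcrfs1 (ENSMUSG00000038462), the Rieske iron-sulfur protein of complex III, had 90.6, 52.4, 55.9 and 84.5 CPM in RA-PBS and 47.3, 52.4, 54.6 and 57.5 CPM in O2-PBS. Here RA-PBS animals 2 and 3 were level with O2-PBS, and animals 1 and 4 were high. The log2 difference was -0.42 ± 0.15 (SE, adjusted p = 0.119). Uqcrc1, a core protein of the same complex, differed by -0.06 ± 0.08 (SE, adjusted p = 0.741).

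The catalytic core of complex I, which as a whole holds the flavin and the iron-sulfur clusters, was lower by small amounts. Ndufs8, which carries a pair of iron-sulfur clusters, had 55.4, 30.5, 36.3 and 53.0 CPM in RA-PBS and 29.1, 33.6, 36.8 and 34.7 CPM in O2-PBS, with a log2 difference of -0.38 ± 0.16 (SE, adjusted p = 0.177). Ndufv1, Ndufv2, Ndufs1, Ndufs3 and Ndufs7 differed by -0.28 to -0.11. Ndufv3, an accessory subunit at the flavin end, was near 0, at -0.03. Ndufb4 was the 1 complex I member with a higher mean in O2-PBS, by 0.07 ± 0.16 (SE, adjusted p = 0.842), and its transcript shares near-identical sequence with Ndufb4c, and Ndufb4 had 41.84% of the counts of the pair, so its counts are uncertain.

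Complex II, which also serves the tricarboxylic acid cycle, differed least. Sdha, the flavoprotein that oxidizes succinate, had 345, 289.8, 267 and 305 CPM in RA-PBS and 264, 278, 278 and 279 CPM in O2-PBS, a log2 difference of -0.13 ± 0.08 (SE, adjusted p = 0.386). The groups overlapped through RA-PBS animal 3. Sdhb, the iron-sulfur subunit, differed by -0.23, and the membrane anchors Sdhc and Sdhd by -0.12 and -0.22.

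In complex IV, the isoform Cox4i2 (ENSMUSG00000009876) departed from the other members. COX4 is a regulatory subunit, and isoform 2 is known from lung and from hypoxic cells. Cox4i2 had 29.8, 14.5, 14.4 and 20.6 CPM in RA-PBS, 28.3, 25.1, 28.3 and 31.6 CPM in O2-PBS, and 24.3, 28.9 and 22.4 CPM in O2-IC100. RA-PBS animal 1 was as high as the O2-PBS retinas, and the other 3 were below them. The log2 difference of O2-PBS from RA-PBS was 0.52 ± 0.20 (SE, adjusted p = 0.134). Without animal 1 it was 0.78, and it was then called (adjusted p = 0.00758). With the crystallin level as a covariate it was -0.04 (adjusted p = 0.891). Crystallins made 1.26% to 4.51% of counts in the 3 RA-PBS retinas in which Cox4i2 was low. They made 0.00691% in RA-PBS animal 1 and at most 0.0204% in O2-PBS. Crystallin level and group thus largely coincide and cannot be told apart by this covariate, and the part of lens tissue was not tested.

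Read per kilobase as a share of both isoforms, Cox4i2 was 9.88%, 8.03%, 6.97% and 7.16% in RA-PBS, 14.8%, 11.8%, 11.8% and 13.5% in O2-PBS, and 9.71%, 11.1% and 9.07% in O2-IC100. All 4 O2-PBS retinas were above all RA-PBS and all 3 O2-IC100 retinas, and the last of these overlapped with RA-PBS. The means were 8.01 ± 1.33% (SD, n = 4), 13.0 ± 1.46% (SD, n = 4) and 9.96 ± 1.04% (SD, n = 3). The share was computed after the levels were known and was not tested. In animal 10 it was 0.760%. Isoform 1, Cox4i1 (ENSMUSG00000031818), which had the highest level of all members per kilobase at 291 CPM, had 284, 173, 201 and 278 CPM in RA-PBS and 170.2, 196, 221 and 212 CPM in O2-PBS, with a log2 difference of -0.23 ± 0.14 (SE, adjusted p = 0.386).

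**Figure D5:**
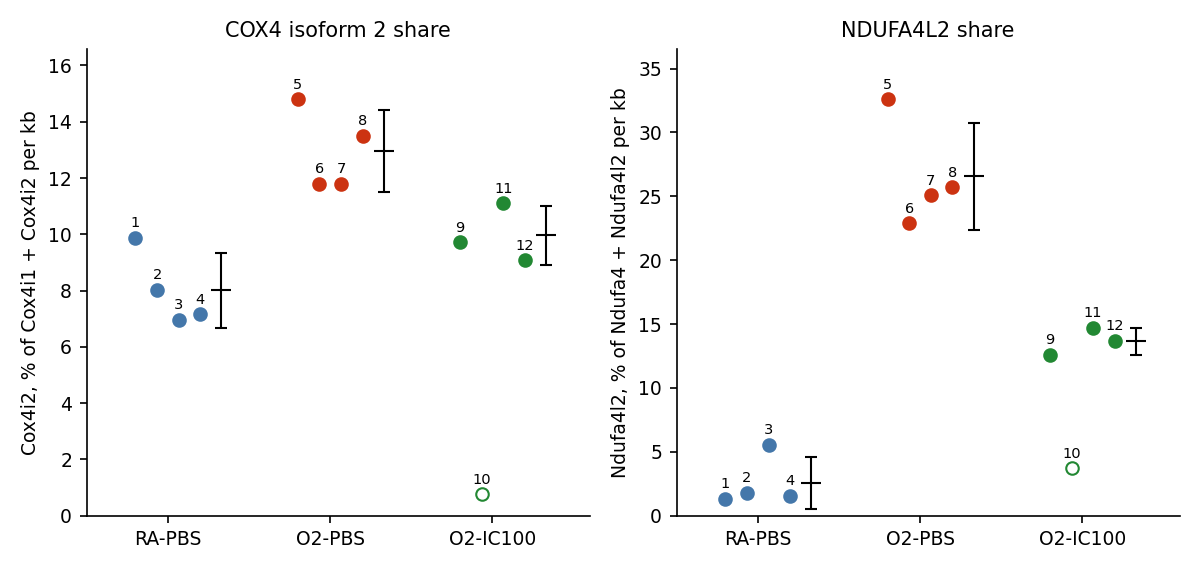
Share per kilobase of Cox4i2 among Cox4i1 and Cox4i2 (left, percent) and of Ndufa4l2 among Ndufa4 and Ndufa4l2 (right, percent) in each retina, with animal numbers, mean and SD without O2-IC100 animal 10 (open circle). O2-PBS retinas lie at 11.8% to 14.8% and at 22.9% to 32.6%, above the RA-PBS and the O2-IC100 retinas in both panels.

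Ndufa4, named as a complex I gene and now known as a subunit of complex IV, had 172, 102, 109 and 181 CPM in RA-PBS, 86.2, 118, 127 and 126 CPM in O2-PBS and 142, 153 and 151 CPM in O2-IC100. Its log2 differences were -0.30 ± 0.18 (SE, adjusted p = 0.361) and then 0.38 ± 0.19 (SE, adjusted p = 0.292). Its paralog Ndufa4l2, left out of the members by name, had 3.56, 2.86, 9.77 and 4.44 CPM in RA-PBS, 63.8, 53.9, 65.3 and 66.8 CPM in O2-PBS and 31.3, 40.3 and 36.7 CPM in O2-IC100. These 3 groups did not overlap. Ndufa4l2 rose by 3.60 ± 0.29 on the log2 scale in O2-PBS (SE, adjusted p = 5.50e-05), differed by -0.79 ± 0.27 between O2-IC100 and O2-PBS (SE, adjusted p = 0.187), and was still higher in O2-IC100 than in RA-PBS, by 2.82 ± 0.30 (SE, adjusted p = 0.00307). With all 12 animals the first of these was called (adjusted p = 0.00495) and the last was not (2.56, adjusted p = 0.175).

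Isoforms known from muscle and brown fat had the lowest levels. Per kilobase, Cox7a1 stood at 3.11 CPM, Cox8b at 3.42 CPM and the isoform of sperm, Cox6b2, at 8.37 CPM, whereas the widely expressed Cox8a and Cox6b1 stood at 269.9 and 121 CPM. Cox8b had 0.688, 1.06, 2.01 and 2.69 CPM in RA-PBS and 0.928, 1.33, 0.75 and 0.673 CPM in O2-PBS, a log2 difference of -0.80 ± 0.43 (SE, adjusted p = 0.310), the only one of the 64 that was beyond 1.5-fold. Its highest RA-PBS values were in animals 3 and 4, which held crystallins (4.51% and 1.45% of counts), whereas animal 2, with 1.26%, had 1.06 CPM of Cox8b. Animal 10 had 93.1 CPM. With the crystallin level as a covariate the difference of O2-PBS from RA-PBS was 0.41 (adjusted p = 0.610), of the opposite sign. The part of lens tissue in the Cox8b values was not tested. Cox6a1 had 1.79 to 4.50 CPM in the 11 retinas, low for an isoform that is known as the ubiquitous one. Cox7a1 had 0.794 to 1.81 CPM. At the count limit, the members just inside were Cox8b with at least 11 counts and Cox7a1 with at least 13, and the muscle isoform Cox6a2, just outside, had 0 to 0.694 CPM in the 11 retinas. Of the 74 genes with such names, 10 were left out: Ndufa4l2 by name, the symbols Ndufb1-ps, Uqcrh-ps1 and Uqcrh-ps2 as pseudogenes, and Cox6a2, Cox6c2, Cox7b2, Cox8c, Ndufa11b and Ndufs6b under the limit. Ndufb1-ps is named as a pseudogene but had 8.09 to 18.9 CPM in the 11 retinas.

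Widely expressed members with Cox symbols were lower in O2-PBS by similar amounts. The log2 differences were -0.27 for Cox8a, -0.31 for Cox7a2, -0.25 for Cox7a2l, -0.20 for Cox6b1 and -0.24 for Cox6c. Cox7b, X-linked as Ndufa1 and Ndufb11 are, differed by -0.18, and Ndufb11 by -0.15.

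The number of members called in this comparison changed when single RA-PBS retinas were left out. The number called lower was 0 with 11 animals, 22 without animal 2 (all genes, 8.81%), 5 without animal 3 (all genes, 8.68%) and 0 without animal 1 (all genes, 4.97%) or animal 4 (all genes, 7.40%). With the crystallin level as a covariate 20 members were called lower (all genes, 14.8%), and that level separates animals 2, 3 and 4 from O2-PBS. The number called lower was 5 (Ndufa1, Ndufb5, Ndufs8, Uqcrc2 and Uqcrfs1) after the length and GC correction, where 11.3% of all genes were called lower. On retina levels labelled as corrected, 0 members lay wholly below RA-PBS (all genes, 6.60%), but those levels hold almost none of the correction.

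The second comparison, O2-IC100 against O2-PBS, asks what the antibody changed after the same exposure. Over all genes 77 (0.461%) were called higher and 142 (0.851%) lower in the fit of the 3 groups, and 0 of the 64 members were called. At an unadjusted p under 0.05, 21 members were higher (all genes, 10.3%) and 0 were lower (all genes, 8.91%). In 49 of 64 members all 3 O2-IC100 retinas were above all 4 O2-PBS retinas (all genes, 19.4%), and in 0 all were below (all genes, 16%). On retina levels labelled as corrected for length and GC, all 3 were above all 4 in 51 members (all genes, 19.3%). Those levels hold almost none of the correction, so whether this separation remains after it was not tested. DESeq2 called 3 members higher (Ndufb5, Ndufs1 and Ndufs8; all genes, 3.40%) and limma voom 0 (all genes, 0.288%). With all 12 animals edgeR called 0 genes (0.00%), 45 members were higher at an unadjusted p under 0.05 (all genes, 11.7%), and the median difference of the members was 0.71.

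The call depended on whether the RA-PBS retinas were in the fit. When only the 7 retinas of these 2 groups were fitted, so that the spread among RA-PBS retinas did not enter, 48 of 64 members were called higher and 0 lower, against 17.5% of all genes called higher. With 1 of the 7 animals left out of that fit it called 35 to 51 members higher (all genes, 12.6% to 16.4%), and 1 lower without animal 11. With all 7 and the length and GC correction the number was 50 (all genes, 20.0%). The median difference was 0.29 in the fit of 2 groups and 0.31 in that of 3, so the sizes were alike and the errors were not. No member differed by 1.5-fold in either of them, so a rule that also asks for that fold, as the study's does, called 0 members. The 3 O2-IC100 retinas all had high Y-linked levels. Of the O2-PBS retinas animal 8 had them too, with 4219 CPM over all members, against 4708 to 4914 CPM in O2-IC100. With the Y-linked level as a covariate in the 3-group fit, 63 members were higher and 0 called (all genes, 39 of 16688 in either direction). With the length and GC correction added, 61 were higher and 0 called (all genes, 15 of 16688). A comparison among retinas with high Y-linked levels has 1 O2-PBS animal and was not tested.

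In the core of complex I, Ndufs8 (ENSMUSG00000059734) had 46.6, 48.4 and 49.2 CPM in O2-IC100, above all 4 O2-PBS retinas, of which the highest had 36.8 CPM. Its log2 difference of 0.52 ± 0.17 (SE, adjusted p = 0.171) was the highest of the members, and in the fit of only 2 groups it was 0.50 ± 0.08 (SE, adjusted p = 0.000932). Ndufs1 (ENSMUSG00000025968), the large iron-sulfur subunit, had 91.7, 104, 98.5 and 108 CPM in O2-PBS and 125, 127 and 125 CPM in O2-IC100. It had the lowest adjusted p of the members in the 3-group fit, at 0.159 for a log2 difference of 0.32 ± 0.10 (SE). With animal 10, which had 77.6 CPM, the difference was 0.17. Ndufv3 differed least in this complex, by 0.12 ± 0.12 (SE, adjusted p = 0.581).

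Complex II had the smallest median difference, at 0.29 against 0.30 to 0.36 in the others. Sdhd differed by 0.39 ± 0.17 (SE, adjusted p = 0.237), with 33.7, 37.3, 41.6 and 43.5 CPM in O2-PBS and 54.2, 50.5 and 49.3 CPM in O2-IC100. Sdha differed by 0.13 ± 0.09 (SE, adjusted p = 0.428), and its O2-IC100 values of 301, 294 and 307 CPM were above the O2-PBS retinas as well. In complex III, Uqcrfs1 had 68.2, 72.7 and 71.4 CPM in O2-IC100, a log2 difference of 0.42 ± 0.16 (SE, adjusted p = 0.214) from O2-PBS. Uqcrc1 had 165, 164 and 159 CPM against 149 to 163 CPM in O2-PBS, and the groups overlapped.

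In complex IV, Cox6c had the largest difference, with 86.0, 105, 109 and 107 CPM in O2-PBS and 136 CPM in each of the 3 O2-IC100 retinas. The difference was 0.42 ± 0.15 (SE, adjusted p = 0.191). Cox8a had 170.2, 180 and 147 CPM in O2-IC100 against 112 to 141 CPM in O2-PBS, and differed by 0.36. Cox4i2 and Cox7a1 were the 2 members with lower means in O2-IC100, by -0.17 ± 0.21 (SE, adjusted p = 0.671) and -0.06 ± 0.36 (SE, adjusted p = 0.938).

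The third comparison, O2-IC100 against RA-PBS, shares its groups with the other two and is given for its own values. Over all genes 204 (1.22%) were called higher and 219 (1.31%) lower, with 0 members called in this fit and 0 in that of 12 animals, which called 0 genes (0.00%) and in which 3 members were higher at an unadjusted p under 0.05 (all genes, 9.04%). DESeq2 (all genes, 6.83% in either direction) and limma voom (all genes, 2.19%) also called 0 members in the 11 retinas. Of the members 54 were higher, with a median of 0.08, but without animal 2 it was 22 higher and 42 lower, and with the crystallin covariate 14 higher and 50 lower. At an unadjusted p under 0.05 there were 0 higher (all genes, 6.80%) and 0 lower (all genes, 8.75%), and in 0 members did the groups not overlap (all genes, 5.84% above and 4.92% below). The 3 O2-IC100 retinas lay within the range of the RA-PBS retinas in the sum of all members. Uqcrfs1 and Uqcrc1 differed least, by less than 0.01, with SE of 0.16 and 0.09. The highest difference was 0.35 ± 0.21 (SE, adjusted p = 0.457) for Cox4i2 and the lowest was -0.49 ± 0.46 (SE, adjusted p = 0.648) for Cox8b.

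Other genes of oxidative metabolism differed in how far they passed the test. The 13 subunits encoded by mitochondrial DNA, which assemble with the nuclear ones in complexes I, III and IV and ATP synthase, were all lower in O2-PBS. Of the 13, 12 were called lower (all genes, 6.42%), with a median of -0.51 over the 13. The subunit mt-Nd1, of the membrane arm of complex I, had 3298, 2057, 1891 and 2672 CPM in RA-PBS, 1349.8, 1669, 1525 and 1456 CPM in O2-PBS and 1919.7, 2119.9 and 1959 CPM in O2-IC100, and fell by 0.73 ± 0.15 (SE, adjusted p = 0.00993). The exception was mt-Atp8, at -0.23 (adjusted p = 0.492). With all 12 animals 0 of the 13 were called (all genes, 0.813% in either direction) and 9 were lower at an unadjusted p under 0.05 (all genes, 2.50%). In O2-IC100 against O2-PBS all 13 were higher, by a median of 0.25, with 0 called (all genes, 0.461%) and 5 at an unadjusted p under 0.05 (all genes, 10.3%). Against RA-PBS 12 were lower, by a median of -0.26, with 0 called (all genes, 1.31%) and 5 at an unadjusted p under 0.05 (all genes, 8.75%). Mitochondrial transcripts reach a poly(A)-selected library by their own tails, so their share can also move with the selection, which was not tested.

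Of 17 tested subunits of ATP synthase, which uses the proton gradient, 0 were called in any comparison, and their medians were -0.22 and then 0.28, close to those of the members. Of 45 assembly factors 0 were called, with medians of -0.10 and 0.20, and of 12 enzymes of the tricarboxylic acid cycle 0 were called, with medians of -0.16 and 0.20. Of 6 electron carriers and subunits outside the name pattern 0 were called. Among these, Cycs, which encodes cytochrome c, had 31.0 to 39.7 CPM in O2-PBS and 48.2, 51.4 and 52.4 CPM in O2-IC100, with log2 differences of -0.36 ± 0.15 (SE, adjusted p = 0.162) from RA-PBS and 0.52 ± 0.16 (SE, adjusted p = 0.150) from O2-PBS. Of 10 regulators of mitochondrial biogenesis 0 were called. At an unadjusted p under 0.05 (all genes, 11.6%) the numbers lower in O2-PBS were 0 for ATP synthase, 3 for assembly factors, 3 for the cycle, 2 for carriers and 1 for regulators. In the same order, those higher in O2-IC100 against O2-PBS (all genes, 10.3%) were 3, 9, 6, 3 and 1. The other tools were not counted over these lists. Ppargc1a, the coactivator PGC-1α, differed by -0.11 and 0.14.

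Of 7 mitochondrial genes linked to hypoxia, 2 rose in O2-PBS (all genes, 6.00%), Ndufa4l2 as given above and Pdk1, the kinase that inhibits pyruvate dehydrogenase. Pdk1 had 62.9 to 80.2 CPM in RA-PBS and 85.6 to 94.1 CPM in O2-PBS, a log2 difference of 0.35 ± 0.08 (SE, adjusted p = 0.0188), which was not called with all 12 animals (adjusted p = 0.504). In O2-IC100 it had 70.0, 78.6 and 72.1 CPM, a difference of -0.29 ± 0.09 (SE, adjusted p = 0.159) from O2-PBS. Cytosolic ribosomal proteins, whose transcripts are short and abundant like those of the members, had medians of -0.11 and 0.25 over 94 tested genes, with 1 called higher in O2-PBS (0 with all 12 animals) and 0 in O2-IC100 against O2-PBS. In the second step their median was near that of the members, and in the first it was nearer to 0.

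Cell type markers did not all move as the members did. Cone markers summed to 1079 to 1309.9 CPM in RA-PBS, 1099 to 1353 CPM in O2-PBS and 1272 to 1393 CPM in O2-IC100. Of 9, 1 rose and 1 fell in O2-PBS, with 0 called in the second step. Microglia markers summed to 27.3 to 42.2, 44.1 to 53.8 and 45.4 to 60.1 CPM, where 2 of 6 rose in O2-PBS and 0 were called in O2-IC100 against it. Rod markers summed to 43006 to 51171 CPM in RA-PBS, 43831 to 51787 CPM in O2-PBS and 45307 to 49921 CPM in O2-IC100 animals 9, 11 and 12, with 0 of 10 called in either step. Ganglion cell markers summed to 939 to 1392 CPM in RA-PBS, 768 to 831 CPM in O2-PBS and 941 to 984 CPM in O2-IC100, and 3 of 7 fell in O2-PBS and 0 were called in O2-IC100 against it. Endothelial markers summed to 184 to 272, 400.3 to 451 and 301 to 333 CPM, where 7 of 8 rose in O2-PBS and 3 fell in O2-IC100 against O2-PBS. Pigment epithelium markers summed to 659 to 737, 344 to 483 and 544 to 576 CPM, where 4 of 6 fell in O2-PBS. Rlbp1 was 1 of these 4 and is also counted among the Muller glia markers that fell. It made most of the pigment epithelium sum, with means of 471 of 691 CPM in RA-PBS and 309 of 399 CPM in O2-PBS. Muller glia markers summed to 3381 to 4967, 2924 to 3242 and 3233 to 3505 CPM, where 4 of 6 fell and 1 rose in O2-PBS, and 1 rose and 1 fell in O2-IC100 against it. Bipolar cell (3 of 7) and amacrine cell (3 of 6) markers also fell in O2-PBS, with 0 called in the second step, and of 5 markers of reactive glia 2 rose in O2-PBS and 2 fell in O2-IC100 against it. Over all genes 6.00% were called higher and 6.42% lower in O2-PBS, and 0.461% higher and 0.851% lower in O2-IC100 against O2-PBS. With all 12 animals (all genes, 0.813% in either direction) the calls left in O2-PBS were 1 endothelial marker and 2 of reactive glia. In that fit 0 markers of these types were called in O2-IC100 against O2-PBS (all genes, 0.00%). In animal 10 the rod sum was 12182 CPM and that of pigment epithelium 7208 CPM. The part of these cells in the members' differences was not tested.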

How the data were processed

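Retinal RNA of 12 mice was sequenced after poly(A) selection as 150 bp paired-end reads. Per the paper's methods, the authors quantified reads with Kallisto against a mouse GRCm39 transcriptome and summed transcripts per gene with tximport, and the deposited values are expected counts per gene without normalization (36131 genes, of which 35374 were matched to a symbol by Ensembl identifier). Groups came from the sample titles, and the labels end the exposure at P12. Rounded to whole numbers, the counts entered edgeR 4.0.16 under R 4.3.3 (TMM, filterByExpr, robust quasi-likelihood F test, two-sided, 3 groups in 1 fit without animal 10), with p-values adjusted by Benjamini-Hochberg over all 16688 tested genes. Calls used an adjusted p under 0.1, the study's false discovery limit. Fold changes are on the log2 scale. Levels per kilobase used GENCODE vM21 (GRCm38) transcript lengths, so no positions are given for the GRCm39 counts. Promoters are RefSeq sequences of GRCm38.p6. Alternatives were all 12 animals, each animal left out, other normalizations and filters, DESeq2 1.42.0, limma voom 3.58.1, fits of 2 groups, covariates and a length and GC correction. The procedure was tested on simulated data. A count of 0 allows up to 3 counts, a share of 1.23e-05% to 2.01e-05% of a library, for counting error only.

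The members and all lists of genes were chosen with earlier results of these data known. Named genes were the SDH subunits, members with isoforms, X-linked and catalytic core members, the extreme members of each complex, those nearest the count limit and context genes that a result turned on. Of 64 members, 11 have a near-identical copy, and only for Ndufb4 and Ndufb4c did the copy take 10% or more of the counts. One member enters the counts and sums but is not reported here by itself. Animal numbers are unique, so samples could not be paired.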

Additional observations from a re-analysis of the deposited data

Results flagged for a closer look

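Values of 4 complexes, their total, 30 named members and 2 isoform shares were examined in each group of 4 retinas, 111 groups of values in all, for a highest or lowest retina whose gap to its neighbour passed Dixon's 95% limit. Chance flags about 1 in 20 such groups, and 31 were found, 29 of them in O2-IC100 animal 10, the retina with 59.0% crystallin counts. The summed levels in animal 10 were 5196 CPM for complex I, 752 CPM for complex II, 1478 CPM for complex III, 2978 CPM for complex IV and 10403 CPM for all members. Among complex I members it had 498 CPM of Ndufa1, 232 CPM of Ndufa4, 212 CPM of Ndufb11, 41.4 CPM of Ndufb4, 149 CPM of Ndufs3, 121 CPM of Ndufs7, 82.9 CPM of Ndufs8, 117 CPM of Ndufv2 and 193 CPM of Ndufv3. Ndufs1, at 77.6 CPM, was below the other 3 retinas and was the only one of the named members found low in animal 10 by this rule of gaps. In complexes II and III it had 209 CPM of Sdhb, 122 CPM of Sdhc, 107 CPM of Sdhd, 286 CPM of Uqcrc1 and 127 CPM of Uqcrfs1. In complex IV it had 705 CPM of Cox4i1, 14 CPM of Cox6a1, 162 CPM of Cox6b1, 279.8 CPM of Cox6c, 153 CPM of Cox7a2, 229 CPM of Cox7a2l, 142 CPM of Cox7b, 542 CPM of Cox8a and 93.1 CPM of Cox8b. Outside animal 10, Sdha was low in O2-PBS animal 5 at 264 CPM, and the Ndufa4l2 share was high in RA-PBS animal 3 at 5.54%, the RA-PBS retina with the most crystallin counts (4.51%).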

How the results depend on the processing

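The direction of the median member was lower in O2-PBS than in RA-PBS (-0.43 to -0.10) and higher in O2-IC100 than in O2-PBS (0.23 to 0.73) under every alternative run. In O2-IC100 against RA-PBS it ranged from -0.13 to 0.51 and turned without animal 2 (-0.04) and with the crystallin covariate (-0.13). The number of calls was not stable. With animals left out of the 3-group fit in turn, members called in O2-PBS against RA-PBS were 0 to 22 lower and 0 to 1 higher, and those called higher were 0 to 8 in O2-IC100 against O2-PBS and 0 to 4 against RA-PBS. Animal 1 (Cox4i2), animal 2 (22 lower, 3 higher), animal 3 (5 lower) and animal 4 (8 and 4 higher) were those whose absence made calls. Over all genes, in either direction, 677 of 16604 were called in O2-IC100 against O2-PBS without animal 2 and 2140 of 16603 without animal 4. In O2-IC100 against RA-PBS 3175 of 16603 were called without animal 4 and 413 of 16640 without animal 1. In O2-PBS against RA-PBS 1730 of 16640 were called without animal 1. Leaving out animals 1 and 10 is the same as leaving out animal 1 (1 and 1 higher). It was planned for crystallins in animal 1, but these were in animals 2, 3 and 4. For O2-PBS against RA-PBS, 1 member was called lower with RLE normalization, 1 higher with upper quartile, library size or limma voom, 1 in each direction with a CPM of 1 in every animal, and 1 higher and 2 lower with DESeq2, which called 3 higher in O2-IC100. In O2-PBS against RA-PBS all genes called, in either direction, were 2103, 2101, 2144 and 1957 of 16688 with RLE, upper quartile, library size and limma voom. They were 1924 of 13703 with a CPM of 1 in every animal. The crystallin covariate gave 20 lower, and 1 lower in O2-IC100 against RA-PBS, the length and GC correction 5 lower, and that with a Y-linked covariate 1 lower. In the same order, these fits called 5573, 3156, 2924 and 1731 of all 16688 genes in either direction. Fits of only 2 groups called 48 higher in O2-IC100 against O2-PBS (47, 43, 51 and 48 without animals 5, 6, 7 and 8, and 36, 35 and 45 without animals 9, 11 and 12), and 50 with length and GC correction, which called 2 lower in O2-PBS. For O2-PBS against RA-PBS that corrected fit called 2102 of 16165 genes in either direction. The combined corrections and the animals left out of the 2-group fit were chosen after seeing the data. With all 12 animals the medians of O2-IC100 against O2-PBS and RA-PBS were 0.71 and 0.48 (DESeq2 0.73 and 0.51), and the sums over O2-PBS were 1.54, 1.29, 1.58 and 1.77 times for complexes I to IV.

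Signs turned in 31 values of single genes, none of them called in the 3-group fit. With animals left out in turn, O2-PBS against RA-PBS ranged from -0.11 to 0.04 for Ndufv3 (0.03, 0.04, 0.02 and 0.01 without animals 1, 4, 5 and 6), from -0.11 to 0.01 for Uqcrc1 (positive without animal 1), from -0.04 to 0.25 for Ndufb4 (negative without animal 2), and, positive without animal 4, from -0.34 to 0.02 for Cox7b, -0.27 to 0.03 for Ndufb11, -0.18 to 0.02 for Ndufs3 and -0.22 to 0.01 for Sdhc. O2-IC100 against O2-PBS ranged from -0.19 to 0.12 for Cox7a1 (positive without animals 5 and 7), from -0.03 to 0.19 for Cox6a1 (negative without animals 5 and 9) and from -0.09 to 0.15 for Cox6b2 (negative without animal 9). Without animals 1 and 10, Ndufv3 was 0.03 and Uqcrc1 0.01 in O2-PBS against RA-PBS. In that comparison Ndufv3 was also 0.02 with upper quartile and 0.03 with library size, Uqcrc1 0.00 with library size, Ndufb4 -0.03 with the Y-linked covariate and -0.04 with both corrections, and with the crystallin covariate Cox4i2 was -0.04 and Cox8b 0.41. In O2-IC100 against O2-PBS Cox7a1 was 0.14 with 12 animals, 0.13 in DESeq2 with 12, 0.50 with the Y-linked covariate, 0.07 with length and GC correction, 0.57 with both and 0.08 in the corrected fit of 2 groups, and Cox6b2 was -0.01 with both. The causes were not tested.

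No paired analysis was possible because animal numbers are not shared between the groups. Depth limits Cox7a1, Cox8b and Cox6a1, with 11 to 27.27 counts in their lowest library.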
